A study of Oryctolagus cuniculus with 18 samples.

Results

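IL10 and genes of T cell signalling were compared in the aorta of atherosclerotic and control rabbits. IL10 was 17.8-fold higher in the atherosclerotic group than in the control group (8.26-fold to 26.1-fold over other reference levels), IL2 was 4.14-fold lower (2.83-fold to 8.95-fold), CD40LG was 3.42-fold higher with a wide spread among rabbits and a call that depended on the reference genes, and neither IL4 nor IFNG passed the test. Those levels did not include the reference genes ACTA2 or LDHA alone. Relative to ACTA2 alone, IL2 was higher in the atherosclerotic group, by 0.86 on the log2 scale. Relative to IL10 of the same rabbit, IL2, CD40LG, IL4 and IFNG all fell. So did 86.7% of the 83 genes of interest set against IL10, these 4 included. These 5 genes, IL2 (NM_001163180), IL4 (NM_001163177), IFNG (NM_001081991), CD40LG (NM_001256781) and IL10 (NM_001082045), were taken by symbol from the 84 genes of interest (GOIs) of a rabbit wound healing PCR array. The first 4 are referred to as the T cell genes and are set against IL10.

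Interleukin 2 is the growth factor that activated T cells make for themselves and for regulatory T cells. Interferon gamma, from type 1 helper T cells, cytotoxic T cells and natural killer cells, activates macrophages, and interleukin 4 is the type 2 cytokine that favours antibody responses and alternative macrophage activation. CD40 ligand is a membrane protein of activated helper T cells and platelets that binds CD40 on B cells, macrophages, endothelium and smooth muscle. Interleukin 10, made by macrophages, regulatory T cells and B cells, signals through STAT3 and restrains inflammatory cytokine output, and it is known as a protective cytokine in atherosclerotic plaque.

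The RNA came from the lower abdominal aorta of 9 control and 9 atherosclerotic male New Zealand White rabbits, 11 weeks old at the start, from a study that imaged atherosclerosis by PET. The control group ate normal chow. The atherosclerotic group ate 0.30% cholesterol for 8 weeks and 0.15% cholesterol for a further 12 weeks, and its aorta was stripped of endothelium with a balloon catheter introduced through the femoral artery on each side in turn. All atherosclerotic rabbits had both the diet and the denudation and no control rabbit had either, so the effects of diet and injury cannot be told apart. Rabbits are named here by the numbers in their labels.

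Each gene was read in 1 well per rabbit by its Ct, the number of PCR cycles after which the well turns positive, and the deposited value is the ratio of the gene to a reference level made of 5 genes, ACTA2, ACTB, GAPDH, LDHA and LOC100346936. The authors held wells that turned positive at 35 cycles or later, or not at all, at 35, so such a well gives only an upper limit. Of the 90 wells of the 5 genes, 11 were at this ceiling, 6 of control and 5 of atherosclerotic rabbits, and 1 of them had no Ct. Assays can differ in efficiency, so levels are compared between rabbits and not between genes.

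A pair of rabbits stood apart before any gene was compared. The reference level of control rabbit 3 was 24.53 cycles, where its group otherwise spanned 22.00 to 22.82, and that of atherosclerotic rabbit 20 was 19.79 cycles, where its group otherwise spanned 22.65 to 23.65. For 4 of the 5 genes rabbit 20 had the earliest Ct of its group. Without both rabbits IL2, CD40LG and IL10 kept their calls, at -1.94 (limma adjusted p = 9.68e-05), 2.13 (limma adjusted p = 0.00208) and 4.33 (limma adjusted p = 7.44e-09) on the log2 scale, and IL4 and IFNG stayed above the threshold of 0.05 (limma adjusted p = 0.0796 for each).

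The array holds 0 of 7 T cell markers, 0 of 3 B cell markers, 0 of 7 macrophage markers, 0 of 2 markers of all leukocytes and 0 of 3 endothelial markers from the lists used, so the cells that carried these transcripts could not be followed on this array. Other measurements of these rabbits were not analysed here. In whole tissue, fewer cells of a type and less RNA per cell cannot be told apart. Smooth muscle, the main cell of the aortic wall, is represented by 3 of 5 markers. Transgelin (LOC100009332) ranged from 12.3 to 19.4 times the reference level in the control group and from 0.776 to 4.53 in the atherosclerotic group, without overlap. ACTA2, smooth muscle actin and itself part of the reference level, ranged from 10.95 to 18.98 and from 0.534 to 11.64. ACTC1 had a Ct under 35 in 10 of the 18 rabbits.

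**Figure D1:**
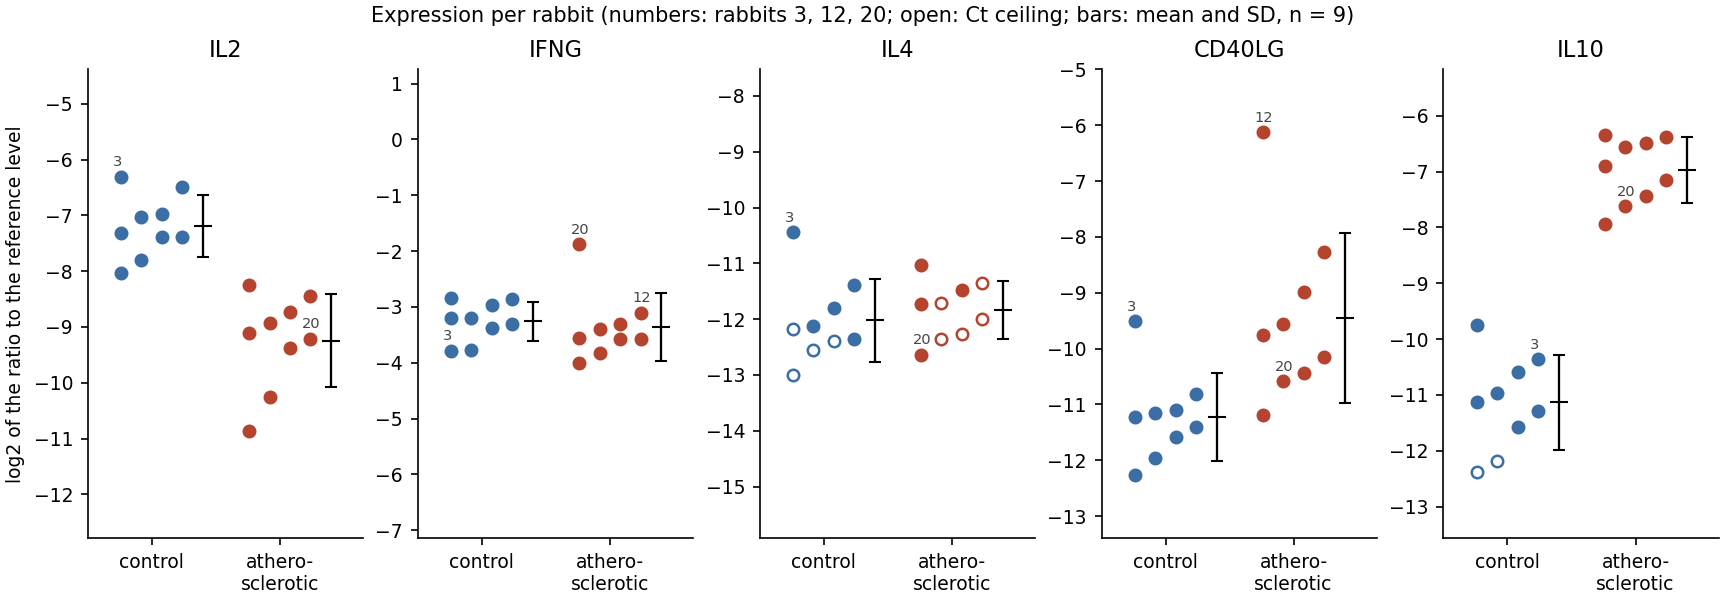
Expression of IL2, IFNG, IL4, CD40LG and IL10 in each rabbit as log2 of the ratio to the reference level; each panel spans the same number of log2 units around its own gene, points are rabbits, open points are wells at the Ct ceiling, and bars give mean and SD of 9 rabbits. The groups separate for IL2 (down) and IL10 (up), CD40LG is spread widely in the atherosclerotic group with rabbit 12 at the top, and IL4 and IFNG overlap.

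The first comparison asked whether each gene differed between the groups. Across all 84 GOIs, limma with Benjamini-Hochberg adjustment called 60.7%, with 38.1% higher and 22.6% lower in the atherosclerotic group, and the exact permutation test called 58.3%. Of the 5 genes here 3 were called by each test, 2 higher and 1 lower, which is close to that background share. Groups without any overlap between rabbits were found for 13.1% of GOIs in the upward and 9.52% in the downward direction, and among the 5 genes for IL10 and IL2.

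IL2 was lower in every atherosclerotic rabbit than in any control rabbit. The ratio to the reference level was 0.00381 at the lowest, 0.00624 at the median and 0.0126 at the highest in the control group, and 0.000538, 0.00181 and 0.00327 in the atherosclerotic group. The lowest control rabbit was above the highest atherosclerotic rabbit, so the groups did not overlap. The log2 difference was -2.05 (SE 0.33, 95% interval -2.74 to -1.36, limma adjusted p = 2.14e-05), a 4.14-fold lower level, and the exact two-sided permutation test gave p = 4.1e-05, the smallest that 9 rabbits against 9 allow. In absolute size this difference ranked 25 of 84.

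All 18 IL2 wells had a Ct under 35, between 29.00 and 33.91, so no IL2 value is a limit. Before normalization the mean Ct was 29.89 among control rabbits and 31.98 among atherosclerotic rabbits. Rabbit 20, whose reference level was early, had the earliest IL2 Ct of all rabbits, yet its ratio of 0.00169 lay within the range of its group. The lowest IL2 ratios belonged to atherosclerotic rabbits 6 (0.000538) and 10 (0.000818).

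The 2 rabbits lowest in IL2 were also lowest in smooth muscle transcripts. Rabbits 6 and 10 had the lowest transgelin ratios, 1.02 and 0.776, and the lowest ACTA2 ratios, 0.683 and 0.534. Rabbits 8 and 2, highest of the group in IL2 at 0.00327 and 0.00286, had transgelin ratios of 3.67 and 3.31, below that of rabbit 14 alone, which had 4.53 with IL2 at 0.00205. Rabbit 20, with IL2 at 0.00169, had a transgelin ratio of 1.95 and the highest ACTA2 ratio of the group, 11.64. Both genes of each pair are divided by the same reference level. The log2 ratio of IL2 to transgelin averaged -11.18 ± 0.46 among control rabbits and -10.25 ± 0.46 among atherosclerotic rabbits (SD, n = 9 per group), so that transgelin differed between the groups by more than IL2. This ratio was chosen after the values were seen and is a description, and the part of a loss of smooth muscle transcripts in the IL2 result was not tested.

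IFNG did not differ beyond the spread between rabbits on the deposited reference level, although other reference levels, given further on, called it lower. The ratio was 0.0725 at the lowest, 0.109 at the median and 0.140 at the highest in the control group, and 0.0623, 0.0848 and 0.272 in the atherosclerotic group. The groups overlapped, with 1 atherosclerotic rabbit above and 2 below every control rabbit. The log2 difference was -0.10 (SE 0.25, 95% interval -0.63 to 0.42, limma adjusted p = 0.741; exact permutation p = 0.700). All 18 wells were detected, at Ct 21.67 to 28.32.

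A single rabbit made the upper end of the IFNG range. Atherosclerotic rabbit 20 stood at 0.272, and the other 8 atherosclerotic rabbits reached at most 0.117. Without it the group mean moved from 0.108 ± 0.0636 (SD, n = 9) to 0.0873 ± 0.0171 (SD, n = 8), against 0.107 ± 0.0248 (SD, n = 9) in the control group, and the log2 difference to -0.29 (95% interval -0.67 to 0.09, limma adjusted p = 0.168).

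The height of rabbit 20 in IFNG depended on the reference gene. Relative to ACTA2 its log2 value was -5.42, below the -5.17 to -2.66 of the other atherosclerotic rabbits. Relative to ACTB it was -2.07 against -5.93 to -4.78, relative to GAPDH -2.96 against -5.34 to -3.61, relative to LDHA 0.65 against -2.95 to -1.27, and relative to LOC100346936 1.16 against -1.65 to -0.77. It was the highest of its group by 4 of the 5 reference genes and the lowest by ACTA2, whose Ct in this rabbit was 16.25 against 21.07 to 24.56 in the others of its group.

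IL4 was at the edge of detection in both groups. A Ct under 35 was recorded in 5 of 9 control and 4 of 9 atherosclerotic rabbits (Fisher's exact test, p = 1.0), and the other wells were limits. Counting those limits as values, the ratio was 0.000122 at the lowest, 0.000215 at the median and 0.000717 at the highest in the control group, and 0.000157, 0.000296 and 0.000481 in the atherosclerotic group. The groups overlapped, and the highest value, that of control rabbit 3 at a Ct of 34.98, was next to that rabbit's own limit of 0.000707.

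The IL4 log2 difference was 0.19 (SE 0.30, 95% interval -0.45 to 0.82, limma adjusted p = 0.605; exact permutation p = 0.543). Leaving out the wells at the ceiling gave -0.09 (SE 0.46, 95% interval -1.13 to 0.94). Both values lay within the spread between rabbits, and 9 of the 18 IL4 values are limits.

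CD40LG was higher in the atherosclerotic group but uneven among its rabbits. The ratio was 0.000202 at the lowest, 0.000418 at the median and 0.00138 at the highest in the control group, and 0.000426, 0.00115 and 0.0144 in the atherosclerotic group. The groups overlapped, with 3 atherosclerotic rabbits above every control rabbit and 8 of 9 above every control rabbit other than rabbit 3. The log2 difference was 1.77 (SE 0.53, 95% interval 0.66 to 2.89, limma adjusted p = 0.00628; exact permutation p = 0.00321), 3.42-fold with an interval of 1.58 to 7.40. The call was lost without ACTA2 in the reference level (0.95, limma adjusted p = 0.120), with GAPDH alone (0.66, limma adjusted p = 0.330) and by the methods' t-test (adjusted p = 0.207).

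Highest and lowest CD40LG values lay 33.7-fold apart in the atherosclerotic group and 6.81-fold apart in the control group. Rabbit 12 stood at the top, at 0.0144 against 0.00324 for the next. Without it the group mean fell from 0.00275 ± 0.00444 (SD, n = 9) to 0.00130 ± 0.000919 (SD, n = 8), the control group standing at 0.000488 ± 0.000350 (SD, n = 9). The difference without rabbit 12 was 2.56-fold (log2 1.36, limma adjusted p = 0.00610), and without control rabbit 3 it was 1.99 on the log2 scale (limma adjusted p = 0.00242).

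CD40LG was detected in all 18 rabbits, though late. A Ct under 33 was reached in 0 of 9 control and 6 of 9 atherosclerotic rabbits (Fisher's exact test, p = 0.00905, adjusted p = 0.0845 over all GOIs). Rabbit 10, lowest of the atherosclerotic group in CD40LG, was the highest in IL10, so high IL10 and high CD40LG were not found in the same rabbits throughout. Rabbit 12 was high in both, at 0.0121 for IL10.

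IL10 gave the clearest separation of the 5 genes. The ratio was 0.000187 at the lowest, 0.000446 at the median and 0.00117 at the highest in the control group, and 0.00406, 0.00840 and 0.0123 in the atherosclerotic group. The lowest atherosclerotic rabbit was well above the highest control rabbit, so the groups did not overlap. The log2 difference was 4.16 (SE 0.34, 95% interval 3.45 to 4.86, limma adjusted p = 2.44e-09; exact permutation p = 4.1e-05), 17.8-fold with an interval of 10.9 to 29.1, and it ranked 6 of 84 in absolute size.

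IL10 was detected in 7 of 9 control and all 9 atherosclerotic rabbits. Control rabbit 1, at Ct 35.04, and control rabbit 19, without a Ct, gave limits only. Keeping late Ct values as measured and counting the missing one as 40 cycles gave 4.72 on the log2 scale (26.3-fold), and leaving both wells out gave 3.83. A Ct under 33 was reached in 2 of 9 control and 9 of 9 atherosclerotic rabbits (Fisher's exact test, adjusted p = 0.0380 over all GOIs), while detection at Ct 35 did not differ for any of the 5 genes (4.76% of GOIs passed that test, and 8.33% at an unadjusted p under 0.05).

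Within the atherosclerotic group IL10 was the more even gene, its highest value 3.03-fold above its lowest, against 6.09-fold for IL2. Rabbits 6 and 10, lowest in IL2, stood at 0.0112 and 0.0123 for IL10, among the 3 highest. Rabbit 8, highest in IL2 at 0.00327, was lowest in IL10 at 0.00406. No test was made of this pattern, since both genes are divided by the same reference level.

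**Figure D2:**
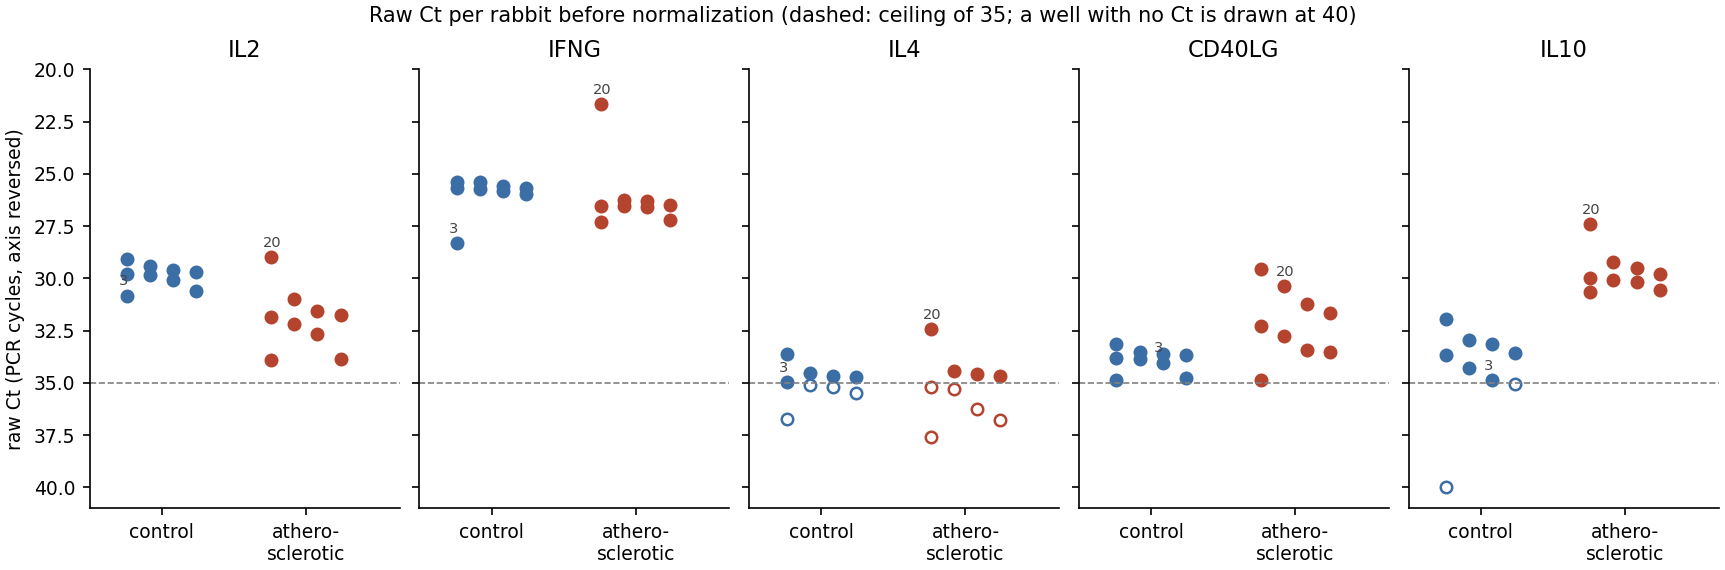
Raw Ct of IL2, IFNG, IL4, CD40LG and IL10 in each rabbit before any normalization, on a reversed axis so that more transcript is higher; the dashed line is the ceiling of 35 cycles, open points are wells at or past it, and the control well of IL10 without a Ct is drawn at 40. IL2 lies later and IL10 earlier in the atherosclerotic group, IL4 straddles the ceiling, and rabbit 20 is the earliest atherosclerotic rabbit in 4 of the 5 genes.

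The choice of reference level moved all 5 differences together, as it must, since each level takes the same value from every gene of a rabbit. Of its genes, LDHA came at Ct 25.57 to 28.63 among control and 22.32 to 25.27 among atherosclerotic rabbits, without overlap, while ACTA2 came at 18.28 to 20.78 and at 16.25 to 24.56. GAPDH ranged from 0.791 to 0.982 times the reference level in the control group and from 1.24 to 3.42 in the atherosclerotic group, without overlap. GAPDH alone is therefore a reference that itself differed between the groups on the deposited level. Over 9 other reference levels IL2 ran from -3.16 to -1.50 and IL10 from 3.05 to 4.71 on the log2 scale, and both kept their calls throughout. ACTA2 alone and LDHA alone were not among these levels. Relative to ACTA2 alone, IL2 averaged -11.02 among control and -10.16 among atherosclerotic rabbits, a rise of 0.86 (exact permutation p = 0.0451). The direction of IL2 therefore turned against that gene. CD40LG stayed positive at 0.66 to 2.32, and its call was lost under 2 of the 9 levels, as given above.

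For IFNG and IL4 the reference level set the sign. IFNG was called lower without ACTA2 (-0.93, limma adjusted p = 0.0169), with GAPDH alone (-1.21, limma adjusted p = 0.00105) and against the mean of the detected genes (-0.70, limma adjusted p = 0.0314), and was positive without LDHA (0.45) and with ACTB alone (0.28). IL4 was called higher without LDHA (0.74, limma adjusted p = 0.0394) and lower with GAPDH alone (-0.92, limma adjusted p = 0.0243). The median of all GOIs shifted by -0.83 without ACTA2, 0.55 without LDHA, 0.38 with ACTB alone, -1.11 with GAPDH alone and -0.60 against the detected genes, so no direction is given for these 2 genes.

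**Figure D3:**
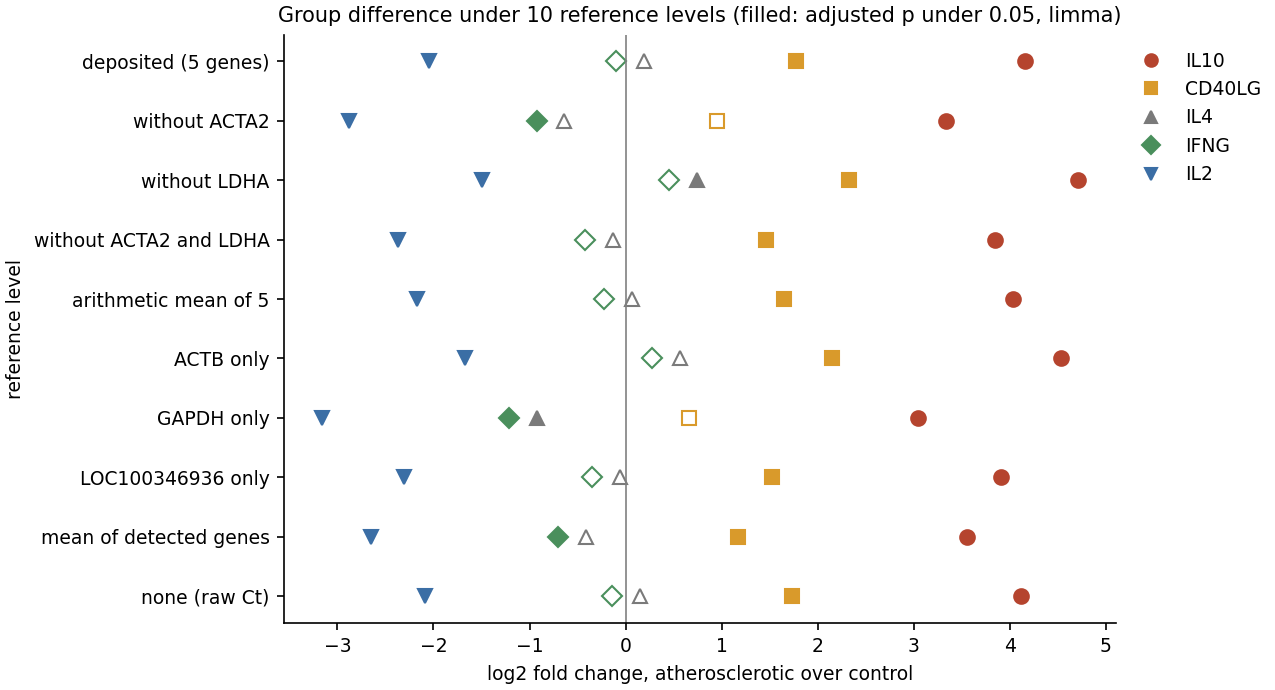
Log2 fold change of the 5 genes, atherosclerotic over control, under the deposited reference level and 9 others; filled symbols have a limma adjusted p under 0.05 over all genes of interest. Each reference level takes the same value from every gene of a rabbit, so the set slides as a whole and the order of the genes cannot change. In the rows shown IL10 and IL2 stay on their own sides of 0, and IL4 and IFNG cross it.

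The second comparison set IL10 against each T cell gene within the same rabbit, where the reference level cancels. IL10 rose relative to all 4 of them. Each of these differences equals the IL10 log2 difference of the first comparison less that of the T cell gene. They therefore restate the first comparison and add only the spread of each ratio between rabbits. In the same fit over the 83 other GOIs, 86.7% were lower relative to IL10 in the atherosclerotic group and 2.41% were higher, and 59.0% were lower without any overlap, so the 4 T cell genes shared this behaviour with most of the array.

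IL10 relative to IL2 rose most of the 4. In the control group it was 0.0167 at the lowest, 0.0604 at the median and 0.196 at the highest, and in the atherosclerotic group 1.24, 5.13 and 20.8. The groups were far apart, and the log2 ratio moved from -3.94 ± 1.15 (SD, n = 9) to 2.27 ± 1.29 (SD, n = 9). The difference was 6.21 (SE 0.54, 95% interval 5.11 to 7.30, limma adjusted p = 7.10e-12; exact permutation p = 4.1e-05), a 73.9-fold rise.

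IL10 relative to IFNG rose 19.2-fold, from -7.88 ± 1.11 to -3.62 ± 1.00 on the log2 scale (SD, n = 9 per group; difference 4.26, SE 0.50, 95% interval 3.25 to 5.27, limma adjusted p = 2.46e-09; exact permutation p = 4.1e-05). The highest control rabbit, at -5.97, was just below the lowest atherosclerotic rabbit, rabbit 20 at -5.74. In the ratios of IL10 to IL2, IFNG and CD40LG, control rabbits 1 and 19 are upper limits, because IL10 was at the ceiling there.

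IL10 relative to IL4 rose 15.6-fold, from 0.89 ± 0.81 to 4.86 ± 0.55 on the log2 scale (SD, n = 9 per group; difference 3.97, SE 0.42, 95% interval 3.12 to 4.82, limma adjusted p = 3.25e-10; exact permutation p = 4.1e-05), and the groups did not overlap. Limits entered 4 control and 5 atherosclerotic ratios. The 5 atherosclerotic ones and those of control rabbits 11 and 15, with IL4 alone at the ceiling, are lower limits of the ratio, and in control rabbits 1 and 19 both genes were at the ceiling. Without these wells the difference was 3.66 (limma adjusted p = 9.22e-06).

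IL10 relative to CD40LG rose least, 5.22-fold, from 0.09 ± 0.80 to 2.48 ± 1.48 on the log2 scale (SD, n = 9 per group; difference 2.38, SE 0.53, 95% interval 1.31 to 3.46, limma adjusted p = 0.000116; exact permutation p = 0.00111). The groups overlapped for this ratio alone among the 4: atherosclerotic rabbit 12, the rabbit with the most CD40LG, was at -0.25, and control rabbit 13, the control rabbit with the most IL10, was at 1.85.

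**Figure D4:**
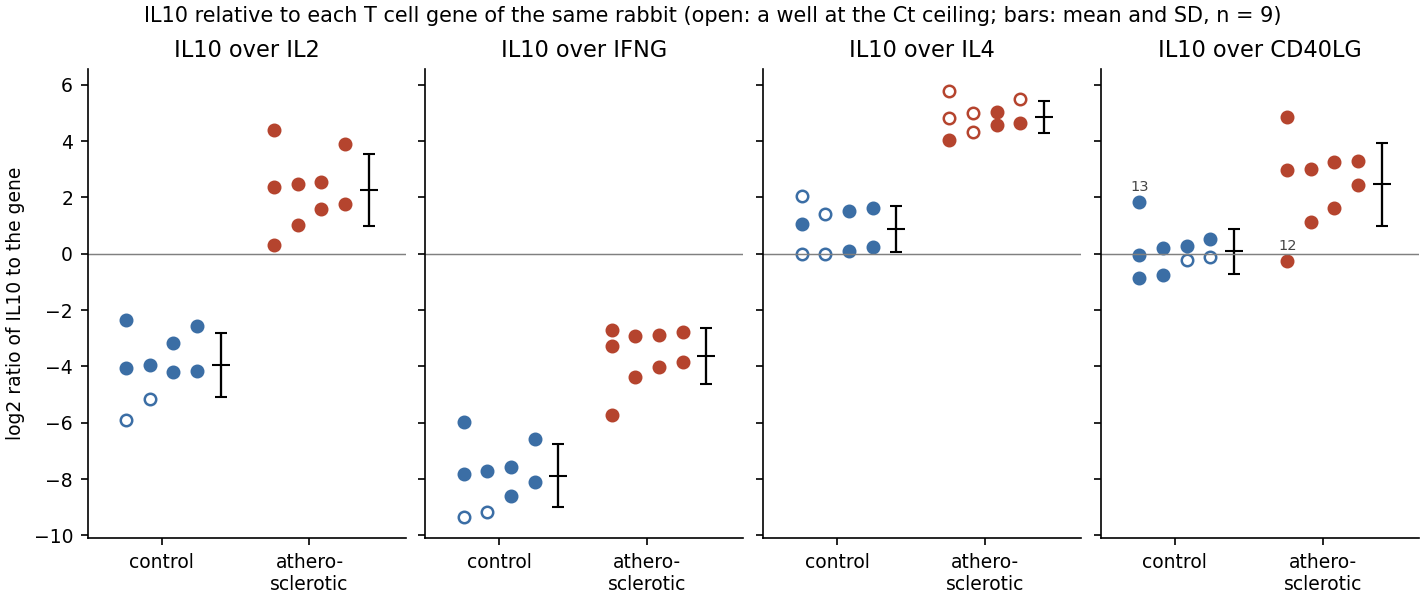
Log2 ratio of IL10 to IL2, IFNG, IL4 and CD40LG of the same rabbit on a common axis; points are rabbits, open points have a well at the Ct ceiling, and bars give mean and SD of 9 rabbits. All atherosclerotic rabbits lie above all control rabbits in the first 3 panels, and rabbits 12 and 13 overlap in the panel of CD40LG.

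The genes whose levels ran most alike each of the 5 across the 18 rabbits were found by the SD of the log2 ratio between both genes, over 62 or 63 GOIs detected in all rabbits; a smaller SD means a closer run, and these are descriptions. The SD is taken over both groups together, so it also holds the difference between the groups, and genes with like group differences come out close. IL2 ran closest to ITGA1, an integrin collagen receptor subunit (0.497), and FGF2, a fibroblast growth factor (0.508), against an SD of 1.26 for IL2 alone. IL10 ran closest to PLAU, the urokinase plasminogen activator (0.928), and ITGA4, the integrin alpha 4 subunit of leukocytes (0.966), against 2.25 alone, with log2 group differences of 3.37 and 4.06 beside the 4.16 of IL10, and was farthest from transgelin (3.85).

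CD40LG ran closest to VEGFA, the endothelial growth factor (0.949), and IGF1, insulin-like growth factor 1 (1.15), against 1.49 alone. IL4 ran closest to STAT3 (0.472), against 0.632 alone, but 9 of its 18 values are limits, which follow the reference level of the rabbit and not IL4. IFNG had no close partner in this sense: its nearest genes, IL6ST (0.490) and DKK3, a secreted Wnt modulator (0.511), left an SD no smaller than that of IFNG itself, 0.489.

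Other genes of cytokine signalling were taken from lists of 37 genes, of which 25 were on the array. Of these, 11 were higher, 3 were lower and 11 were not called, with a median log2 difference of 1.01 beside 0.37 over all GOIs, where 38.1% were higher and 22.6% lower. Of the 14 called, 10 kept their calls under all 9 other reference levels, and the exceptions were CSF3, GRB2, MAPK3 and TGFB1. Among 4 innate cytokines and the innate receptor TLR4, 2 were higher and 3 were not called (median 1.24). TLR4, which senses bacterial lipopolysaccharide, rose by 5.30 on the log2 scale (SE 0.41, limma adjusted p = 1.49e-09) without overlap, and by 4.19 with GAPDH alone. TNF had a Ct under 35 in 0 of 9 control and 9 of 9 atherosclerotic rabbits, so its 5.05-fold difference (limma adjusted p = 1.51e-05) is a lower limit on the deposited reference level, and the same difference was 2.34-fold with GAPDH alone. IL1A (0.32), IL6 (0.91) and IL1B (1.24) did not pass the test, and IL1A had a Ct under 35 in 2 rabbits only. Under other reference levels IL1A was called higher in 2 of 9 and lower in 1, and IL6 was called higher in 2.

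Of 13 colony-stimulating factors, chemokines and MIF, 5 were measured, with 2 higher, 1 lower and 2 not called (median 0.42). The shares over all GOIs were 38.1% higher and 22.6% lower (median 0.37). The chemokines CXCL8, which draws neutrophils, and CCL2, which draws monocytes, were 12.2-fold and 11.1-fold higher (limma adjusted p = 0.000158 and 5.01e-05), and 5.67-fold and 5.16-fold with GAPDH alone. CSF3, the granulocyte growth factor, fell by 1.05 on the log2 scale (limma adjusted p = 0.00835), with a Ct under 35 in all 9 control and 3 of 9 atherosclerotic rabbits, and lost its call without LDHA (-0.50). CSF2 (0.42) and MIF (0.32) did not pass the test. Over the 9 other reference levels MIF was called higher under 2 and lower under 2, and CSF2 was called higher under 1.

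Of 9 receptor subunits and signal carriers, 6 were measured, with 3 higher and 3 not called (median 0.63). All GOIs together had 38.1% higher and 22.6% lower (median 0.37). STAT3, which carries the IL10 signal, differed by -0.01 (SE 0.21, limma adjusted p = 0.961), and IL6ST, the shared receptor subunit of the IL6 family, by 0.25 (SE 0.22, limma adjusted p = 0.330). Over the other reference levels STAT3 ran from -1.12 to 0.54 and IL6ST from -0.86 to 0.80, so neither has a settled direction. TIAM1, an activator of the Rac GTPase, was 37.2-fold higher without overlap (limma adjusted p = 6.58e-09), and 17.2-fold with GAPDH alone. The kinase MAPK3 was higher by 1.01 and the adaptor GRB2 by 1.43. With GAPDH alone neither kept its call (-0.10 and 0.32), and MAPK3 was called under 6 of the 9 other reference levels.

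The 9 genes known to be induced when CD40 is bound were all measured, and 4 were higher, 1 was lower and 4 were not called (median 2.32). Over all GOIs 38.1% were higher and 22.6% lower (median 0.37). The proteases MMP1 and MMP9 and the plasminogen activator PLAU were higher, PLAU by 3.37 (SE 0.25, limma adjusted p = 7.39e-10) without overlap. MMP1 had a Ct under 35 in 0 of 9 control and 9 of 9 atherosclerotic rabbits, so its 30.9-fold difference (limma adjusted p = 1.25e-06) is a lower limit on the deposited reference level, and the same difference was 14.3-fold with GAPDH alone. CCL2 is the other gene called higher. F3, tissue factor, fell by 2.04 on the log2 scale (limma adjusted p = 6.94e-05). PLAUR (2.32, limma adjusted p = 0.0532), PTGS2 (1.03), IL6 and IL1B did not pass the test. PLAUR was called higher under 3 of the 9 other reference levels and PTGS2 under 1.

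Of 4 immune regulators of the TGF beta family 3 were measured, with 1 higher, 1 lower and 1 not called (median 0.64). Across all GOIs 38.1% were higher and 22.6% lower (median 0.37). TGFB1, which restrains T cells, was 1.77-fold higher (log2 0.83, limma adjusted p = 0.00231), but was called under only 4 of the 9 other reference levels and stood at -0.28 with GAPDH alone. TGFB3 fell by 2.15 on the log2 scale (limma adjusted p = 9.85e-06) without overlap, and TGFBR3 (0.64) did not pass the test.

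**Figure D5:**
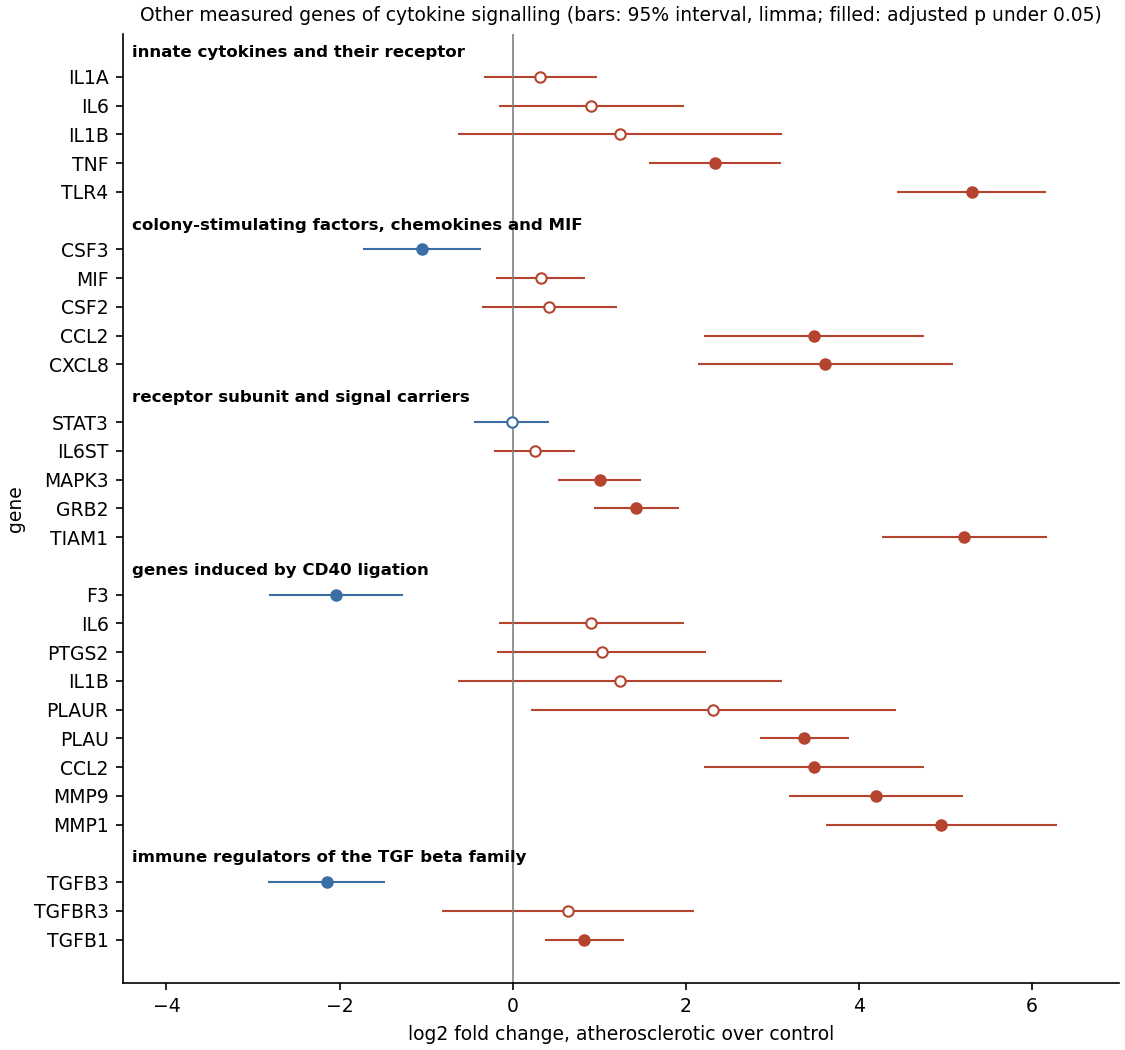
Log2 fold change, atherosclerotic over control, of the genes reported here from 5 lists of cytokine signalling, with 95% intervals from limma; filled points have an adjusted p under 0.05 over all genes of interest, and IL6, IL1B and CCL2 appear in more than 1 list. TLR4, TIAM1 and MMP1 lie furthest to the right, and F3 and TGFB3 furthest to the left.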

How the data were processed

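RNA from the lower abdominal aorta of 18 rabbits was reverse transcribed and read on a rabbit wound healing PCR array in 1 well per gene. The authors deposited, per well, the Ct and the ratio 2 to the power of minus deltaCt, computed with GeneGlobe. All 1602 deposited ratios matched, within 5e-07, a Ct held at 35 and the geometric mean of the Ct values of 5 reference genes. The authors also deposited fold changes and p-values of their own comparison, which were not used.

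Groups came from the labels. log2 of the deposited ratio was fitted with limma 3.58.1 (R 4.3.3; lmFit, eBayes, no covariates) over 84 GOIs, and log2 of each gene over IL10 of the same rabbit over 83, with Benjamini-Hochberg adjustment and a threshold of 0.05. Each single comparison also had an exact permutation test, two-sided, of the 48620 ways to split the rabbits, and detection was compared by Fisher's exact test. Nothing in the sources used here says that wells were repeated, so precision is limited by 1 well per gene. The fit was first tested on simulated data. Scripts ran in Python 3.11.15 with pandas 2.3.3, numpy 2.4.6 and scipy 1.17.1, and plots were drawn with matplotlib 3.10.9.

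Alternatives covered the reference level, late Ct values, a filter on detection in at least 5 rabbits of a group, array weights, exact tests, the methods' t-test and each rabbit left out. Leaving out rabbits 3 and 20 together was added after seeing the data. The 5 genes and all lists were chosen with earlier results of these data known. Named are the 5 genes, the 2 GOIs closest to each, the measured innate cytokine and signal carrier genes, the 2 largest changes in each direction of other lists and the reference genes. A gene close to IL4 and a gene of the lists, counted but not named, are not reported here. Further genes of the lists were named after their values were seen. The accessions of all 5 genes carried the same symbols in the RefSeq table of assembly mOryCun1.1, used for names only.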

Additional observations from a re-analysis of the deposited data

Results flagged for a closer look

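Over 20 groups of 9 values, a rabbit lay further from the others of its group than Dixon's 95% critical value allows in 3, where chance gives about 1. The reference level of control rabbit 3 was at 24.53 cycles, with the other control rabbits at 22.00 to 22.82. That of atherosclerotic rabbit 20 was at 19.79 cycles, with the others at 22.65 to 23.65. The log2 ratio of IFNG in atherosclerotic rabbit 20 was -1.88, with the others at -4.01 to -3.10.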

How the results depend on the processing

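No paired analysis was possible because the groups share no rabbit number. IL2, IL10 and IL10 relative to each T cell gene kept direction and call under every alternative listed above. Those did not include ACTA2 alone or LDHA alone as the reference level. Relative to ACTA2 alone, IL2 was higher by 0.86 (exact permutation p = 0.0451). With each rabbit left out in turn no call of the 5 genes changed, and the log2 difference ranged from -2.17 to -1.85 for IL2, 0.07 to 0.39 for IL4, -0.29 to -0.02 for IFNG, 1.36 to 1.99 for CD40LG and 4.001 to 4.33 for IL10. IL4 was reversed at -0.64 without ACTA2, -0.13 without ACTA2 and LDHA, -0.92 with GAPDH alone, -0.063 with LOC100346936 alone, -0.41 against the mean of detected genes, -0.21 with no ceiling and -0.094 with late wells left out, and passed the threshold at 0.74 without LDHA. IFNG passed it at -0.93 without ACTA2, -1.21 with GAPDH alone and -0.70 against the detected genes, and was reversed at 0.45 without LDHA, 0.28 with ACTB alone and 0.0055 by the methods' t-test. CD40LG lost its call at 0.95 without ACTA2, 0.66 with GAPDH alone and 2.49 by the methods' t-test (adjusted p = 0.207). GOIs called higher numbered 32, and 19 with GAPDH alone, 47 without LDHA and 40 with ACTB alone. GOIs called lower numbered 19, and 34 without ACTA2, 10 without LDHA, 10 with ACTB alone, 42 with GAPDH alone, 29 against the detected genes and 11 with raw Ct. Called genes of all lists numbered 14, and 11 to 21 over the alternatives other than leaving out 1 rabbit. By list these ranges were 1 to 4 for innate cytokines and TLR4, 2 to 5 for chemokines and growth factors, 3 to 5 for signal carriers, 4 to 8 for genes induced by CD40 and 1 to 2 for the TGF beta family. With detection at Ct 33, IL10 was detected in 7 more atherosclerotic than control rabbits (adjusted p = 0.0380) and IL4 in 1 more. The causes were not tested. Depth limits IL4 most, with 9 of 18 wells at the ceiling.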
